A study of Saccharomyces cerevisiae with 12 samples.

Results

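The heat response of RNA attached to Mex67 was set against the heat response of RNA attached to Npl3 in budding yeast, gene by gene. The measure was an interaction, the heat change (42 °C over 25 °C) in the Mex67 immunoprecipitate minus that in the Npl3 immunoprecipitate, on the log2 scale, so that a positive value means a larger heat change with Mex67. It used the 8 of the series' 12 libraries that came from a precipitated protein, and every one of 7126 counted features entered, of which 5334 had enough reads to be tested. The groups were Mex67 at 42 °C, Mex67 at 25 °C, Npl3 at 42 °C and Npl3 at 25 °C, with 2 libraries in each.

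The Mex67 libraries came from the strain HKY1266 and the Npl3 libraries from HKY157. Cultures of both were grown at 25 °C in rich medium (YPD) to log phase and divided, and the parts were held for 30 min at 42 °C or at 25 °C, irradiated with UV to cross-link RNA to protein, lysed and taken through RNA immunoprecipitation. The labels name beads for a c-myc tag and for a GFP tag without saying which strain was taken through which, so strain, tag, bead and protein cannot be told apart in any level. A heat change within a strain shares all of these, and the interaction compares only such changes. Replicates are biological by the series' design, with nothing further on their origin, and replicate numbers are used below as culture 1 and culture 2 of a strain, since each culture was divided between the temperatures. That equal numbers mark parts of the same culture is an assumption. No library of total RNA was analysed here, so a change in how much of a message the cells held and a change in how much of it was attached to a protein cannot be told apart, nor can fewer cells with a message and less of it per cell.

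Mex67 is the main export receptor for messenger RNA in yeast. It carries messages through the nuclear pore together with its partner Mtr2, and it reaches most messages through adaptor proteins. Npl3 is an SR-like RNA-binding protein that joins nascent transcripts, shuttles between nucleus and cytoplasm, and acts as one of the adaptors and quality control (guard) proteins from which Mex67 is recruited. Heat shock stops the export of most messages in yeast while messages for heat shock proteins continue to leave the nucleus. The series' title names a bypass of nuclear quality control for stress transcripts, and the interaction bears on whether heated cells show different shifts of messages on the receptor and on the guard protein.

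Depth differed by culture and group. In heated Mex67 libraries it was 889402 counts for culture 1 and 449513 for culture 2, and in unheated ones 354440 and 422858. Heated Npl3 libraries had 778484 for culture 1 and 1011990 for culture 2, and unheated ones 742758 and 1140349. Levels are given as TMM-scaled CPM, read counts relative to library size, and comparisons between genes are comparisons of heat changes, not of levels. Over the 2730 features with a mean of at least 50 counts, Npl3 at 42 °C of culture 1 stood farthest from the Mex67 libraries, with rank correlations of 0.212 to 0.495 against them, where the other 3 Npl3 libraries had 0.436 to 0.684. Mex67 at 42 °C of culture 1 stood apart from its own group. It had 0.497 to 0.694 with the other Mex67 libraries, which had 0.842 to 0.884 among themselves. The cultures also differed in genes of a single mating type. The summed level of 6 a-cell genes was 64.2 and 619 CPM in Mex67 at 42 °C (cultures 1 and 2), 17.1 and 1288 CPM in Mex67 at 25 °C, 176 and 2047 CPM in Npl3 at 42 °C, and 38.8 and 2934 CPM in Npl3 at 25 °C. That of 5 alpha-cell genes was 733 and 605 CPM in Mex67 at 42 °C, 3865 and 266 CPM in Mex67 at 25 °C, 18.5 and 561 CPM in Npl3 at 42 °C, and 43.5 and 153 CPM in Npl3 at 25 °C. In both strains cultures 1 and 2 thus differed in their mating type genes. Both kinds had sums of 153 CPM or more in the heated and unheated parts of culture 2 of each strain. URA3, an auxotrophy marker, had 2 to 122 counts in the Mex67 libraries and 760 to 1481 counts in the Npl3 libraries. LEU2, a further such marker, had 509 and 418 counts in culture 1 of the Mex67 strain (42 °C and 25 °C) and 0 and 1 in culture 2, against 10 to 39 counts in the Npl3 libraries, so this marker also separated the Mex67 replicates. The labels do not say whether replicates under a single strain name share a genotype. The part of these differences in any result below was not tested.

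No feature differed between the heat responses of Mex67 and Npl3 past the threshold. By edgeR's quasi-likelihood test with Benjamini-Hochberg adjustment over all 5334 features, 0 features were called in either direction (0% higher and 0% lower), and the lowest adjusted p was 1.00. At an unadjusted p under 0.05 there were 64 features (1.2%), and DESeq2 and limma voom also called 0. With the culture as a block, which compares each heated part with the unheated part of its own culture, the count was again 0 and the lowest adjusted p was 0.279 (YER053C-A). The median standard error of the log2 difference was 0.66 and the median half-width of its 95% interval was 1.46. For 6 features the whole interval lay within 1 log2 unit of zero, and for 2994 (56.1%) within 2 log2 units. For nearly all messages a difference of 2-fold or more between the responses, in one direction or both, thus lay within the interval.

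Each arm alone gave no call either. The Mex67 heat change had 0 called features, 489 at an unadjusted p under 0.05 (9.17%) and a lowest adjusted p of 0.511 (HSP12). The Npl3 heat change had 0 called features, 526 at an unadjusted p under 0.05 (9.86%) and a lowest adjusted p of 0.148. Both arms made calls once the culture was a block: 3 higher features with Mex67, which were YER053C-A, HSP12 and HSP26, and 29 higher and 1 lower with Npl3, among them JEN1, CAT8, NQM1 and HBT1 as well as HSP12 and HSP26. The fit with the block left 2 residual degrees of freedom, against 4 without it. DESeq2 without the block called 11 features with Mex67 (10 higher, 1 lower) and 32 with Npl3 (30 higher, 2 lower), and limma voom called 0 in each arm. A gene called in one arm and not in the other was not thereby shown to differ, and none of these features passed the test of the difference.

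The heat changes of the 4 cultures resembled each other within and between the proteins. Over the 2730 features, the heat changes of the Mex67 cultures had a rank correlation of 0.579 with each other, and those of the Npl3 cultures had 0.392. Between the proteins the 4 pairs of cultures had 0.393 to 0.673, so cultures of different proteins resembled each other about as much as cultures of the same protein. These points are genes of the same 8 libraries and no replicates of each other. Both Mex67 culture changes lay above both Npl3 culture changes for 769 features (14.4%), and below both for 659 (12.4%). The difference from the fit was above 0 for 2759 features (51.7%), and counts of list members above 0 are read against that share. With 2 cultures against 2, the smallest two-sided p of an exact permutation test of a single gene or list is 0.333, so the counts of separated cultures given below describe the lists and are read against 14.4% and 12.4%.

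**Figure D1:**
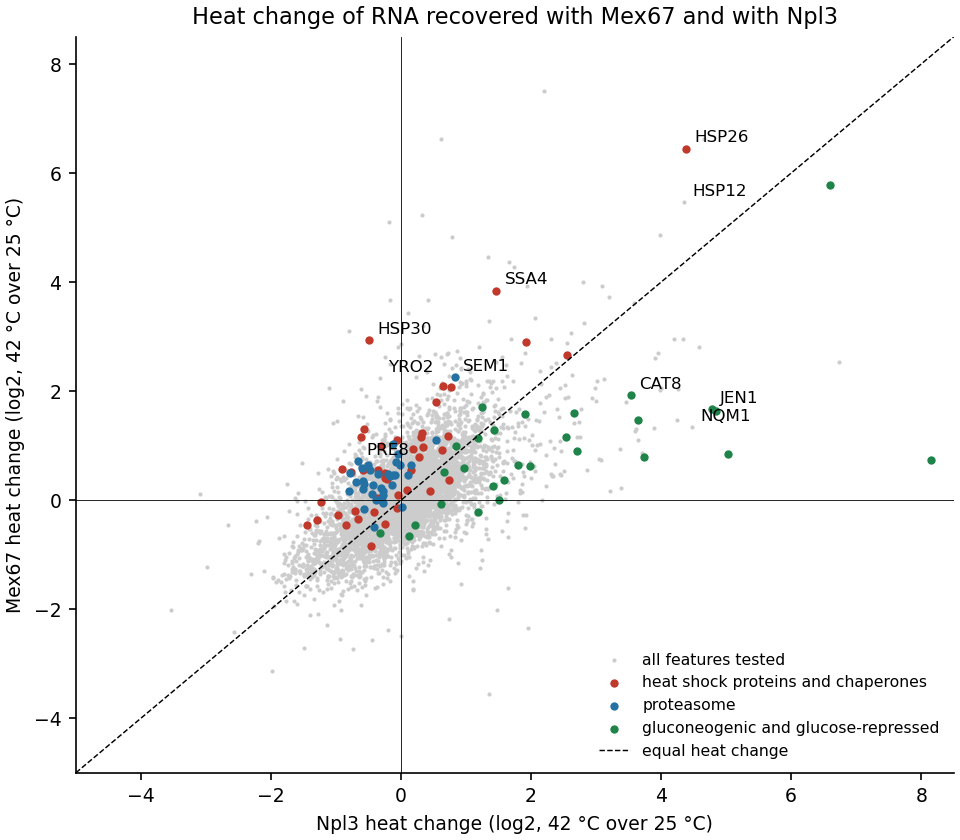
Heat change with Npl3 (x axis) against heat change with Mex67 (y axis), both as log2 of 42 °C over 25 °C from the fit, one point per feature, with the line of equal change dashed. Chaperone and proteasome messages lie mostly above the line, glucose-repressed messages below it, and HSP26 and HSP12 near its upper end with positive changes on both axes.

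Messages for heat shock proteins and chaperones, which fold, hold and disaggregate proteins, had larger heat changes with Mex67 than with Npl3 in 39 of the 44 tested members of the list (46 in all). None was called. The median difference was 0.73 (log2), against 0.02 over all features. The median change was 0.55 with Mex67 and −0.23 with Npl3. By culture the median was 0.59 and 0.51 with Mex67 and −0.14 and −0.02 with Npl3, so the medians of the Npl3 cultures were close to those of all features (0.08 and 0.03). Both Mex67 cultures lay above both Npl3 cultures for 16 members (36.4%, against 14.4% of all features) and below for 0 (against 12.4%). No member had both Mex67 cultures above 0 and both Npl3 cultures below 0.

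HSP26, a small heat shock protein that holds unfolded proteins (YBR072W, build R64, chromosome II, 382030 to 382674), had 8754 and 11302 CPM with Mex67 at 42 °C and 157 and 72.8 CPM at 25 °C. With Npl3 it had 11028 and 5854 CPM at 42 °C and 709.7 and 97.7 CPM at 25 °C. All 4 heated libraries thus lay above all 4 unheated ones, and the heated levels of the proteins overlapped. The log2 heat change was 6.45 ± 1.13 (SE) with Mex67 and 4.39 ± 1.02 with Npl3. With the culture as a block both passed edgeR's test (adjusted p = 0.0323 for Mex67 and 0.0280 for Npl3). Their difference was 2.06 ± 1.28 (95% interval −0.80 to 4.92), and the culture changes overlapped (5.78 and 7.23 with Mex67, 3.95 and 5.87 with Npl3). The size rests on single libraries: it was 0.10 without Npl3 at 25 °C of culture 1, where HSP26 was highest among the unheated libraries.

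HSP12, a membrane-protecting stress protein, had 2642 and 2378 CPM with Mex67 at 42 °C and 68.5 and 45.2 CPM at 25 °C. The Npl3 libraries had 6129 and 2872 CPM at 42 °C and 343 and 98.6 CPM at 25 °C. It rose with both proteins in the fit with the culture block (adjusted p = 0.0160 for Mex67 and 0.0108 for Npl3 by edgeR's test). Its difference was 1.11 ± 1.03 (SE), and it was 0.04 without Npl3 at 25 °C of culture 1. HSP26 and HSP12 were thus recovered at higher levels after heat with the receptor and with the guard protein, and the difference between these rises did not pass the test for either message.

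HSP30, a plasma membrane protein that restrains the proton pump, had 847 and 852 CPM with Mex67 at 42 °C, against 214 and 10.0 CPM at 25 °C. With Npl3 it had 50.3 and 121 CPM at 42 °C, against 40.4 and 199 CPM at 25 °C. The heated Mex67 libraries stood above the other 6, and the culture changes did not overlap (1.97 and 6.07 with Mex67, 0.30 and −0.70 with Npl3). The difference was 3.42 ± 1.58 (SE, unadjusted p = 0.0606, adjusted p = 1.00 by edgeR's test). The level of 10.0 CPM rests on 4 counts, and the difference lay between 1.84 and 6.90 as each library was left out.

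SSA4, the Hsp70 chaperone that is made chiefly under stress, had 3203 and 1704 CPM with Mex67 at 42 °C and 237 and 105 CPM at 25 °C. In the Npl3 libraries it had 617 and 1462 CPM at 42 °C and 672 and 85 CPM at 25 °C. Mex67 cultures and Npl3 culture 2 thus had nearly the same change (3.74, 3.98 and 4.06), and Npl3 culture 1 had −0.12. The difference of 2.38 ± 1.29 (SE) therefore rests on that culture, whose unheated part already held as much SSA4 as its heated part, and it was 0.31 without Npl3 at 25 °C of culture 1.

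Culture 1 of Npl3 was also the lowest for abundant chaperones. HSP82, a form of Hsp90, had culture changes of 1.93 and 1.57 with Mex67 and −0.77 and 1.72 with Npl3, with a difference of 1.27 ± 1.01 (SE). SSA1, a cytosolic Hsp70, had 0.57 and 1.35 with Mex67 and −1.22 and 0.90 with Npl3, with a difference of 1.29 ± 0.93. Without Npl3 at 25 °C of culture 1 these differences were 0.69 for HSP82 and 0.43 for SSA1. Both have near-identical copies in the genome (HSC82 and SSA2), and how reads with several positions were counted is not given in the sources used here. HSP42, a small heat shock protein, had 0.75 and 2.02 with Mex67 and, with the cultures the other way round, 1.78 and −1.26 with Npl3. The disaggregases separated by culture. HSP104, which pulls proteins out of aggregates, had changes of 0.96 and 1.66 with Mex67 and 0.02 and 0.67 with Npl3 (difference 0.90 ± 0.85), and its cultures did not overlap. Its mitochondrial relative HSP78, also separated, had 615 and 521 CPM with Mex67 at 42 °C and 359 and 148 CPM at 25 °C, against 479.6 and 342 CPM at 42 °C and 345 and 317 CPM at 25 °C with Npl3 (difference 0.86 ± 0.70). SIS1, a J-protein that guides Hsp70, and BTN2, which gathers misfolded proteins, had differences of 0.91 ± 0.77 and 0.74 ± 0.96, with overlapping cultures.

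Among members with a mean of at least 50 counts, the lowest differences were those of MGE1, the nucleotide exchange factor of the mitochondrial Hsp70, with −0.08 ± 0.67, and CDC37, an Hsp90 partner that loads kinases, with 0.09 ± 0.50. The sign of the first turned under other scalings and filters, as given in the closing section. Subgroups were formed after the values were seen. The 10 genes of Hsp90 and its partners had a median difference of 0.97 (9 above 0), the 12 of cytosolic Hsp70 and its partners 0.71 (11 above 0), and the 8 mitochondrial chaperones 0.50 (6 above 0). In that order, both Mex67 cultures lay above both Npl3 cultures for 3, 2 and 4 members (30%, 16.7% and 50%, against 14.4% of all features). For cytosolic Hsp70 and its partners this share was near that of all features. Their median changes were 0.37 and 0.36 in the Mex67 cultures and 0.00 and 0.26 in the Npl3 cultures. For Hsp90 and its partners the Mex67 cultures were 0.74 and 0.27, and the Npl3 cultures were −0.76 and 0.54.

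**Figure D2:**
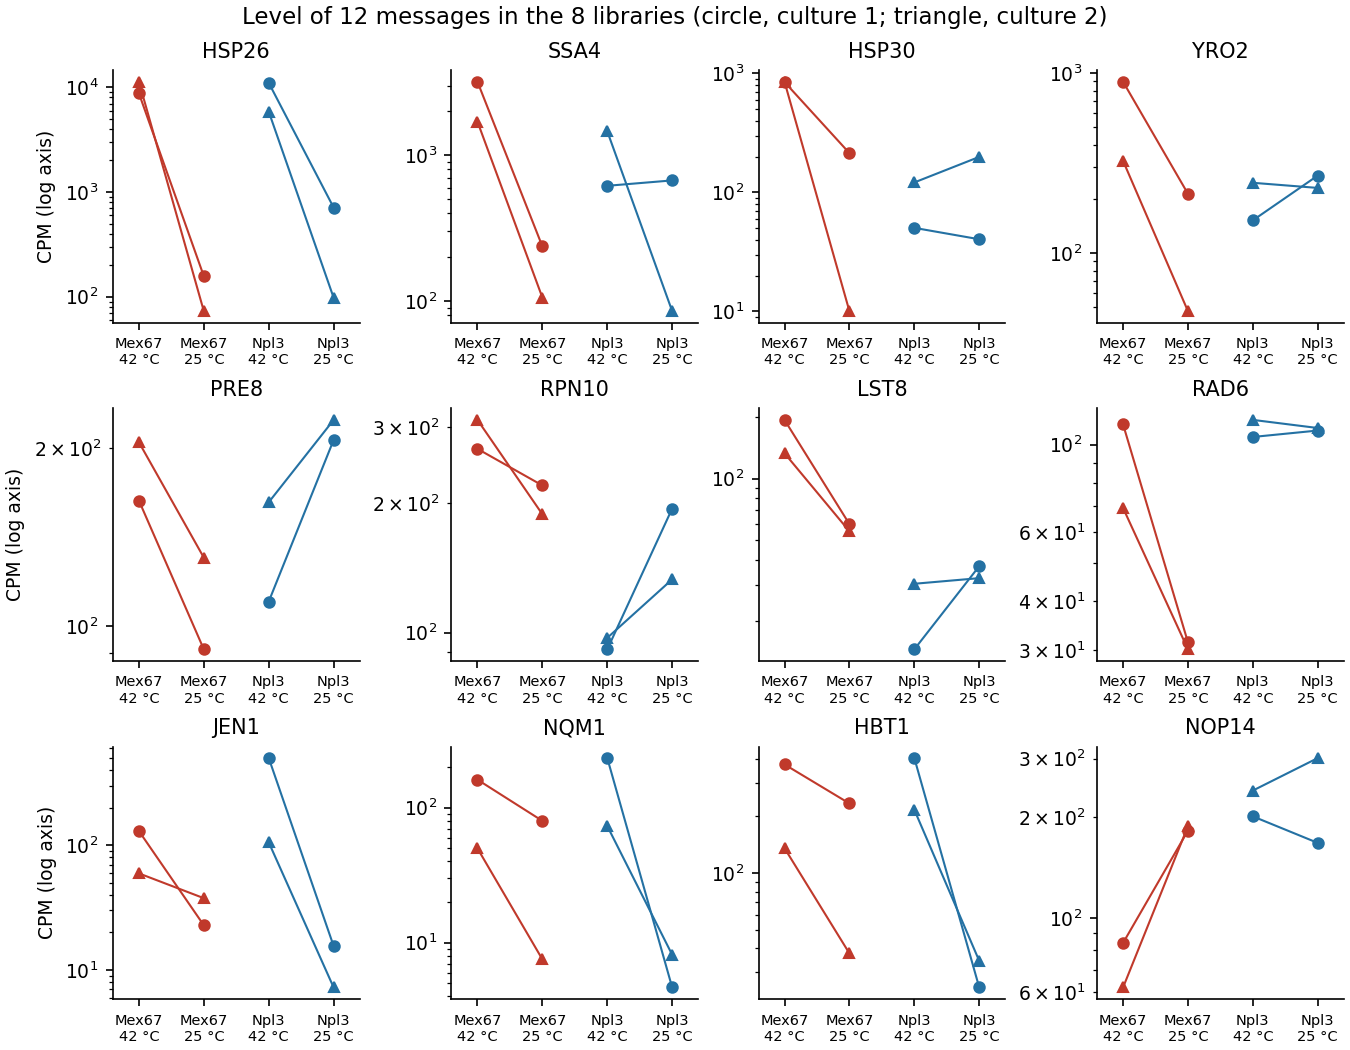
Level of 12 messages in the 8 libraries in CPM on log axes, with Mex67 left of Npl3 and 42 °C left of 25 °C in each panel, and a line joining the parts of one culture (circle, culture 1; triangle, culture 2). HSP26 is higher at 42 °C in all 4 cultures, SSA4 in all but Npl3 culture 1, LST8 and RAD6 by far the most in the Mex67 cultures, and JEN1 has its steepest lines in the Npl3 cultures.

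The proteasome is the protease that degrades ubiquitin-tagged proteins, built of a 20S core and a 19S cap that recognises and unfolds its substrates. All 35 members were tested, 33 had a larger heat change with Mex67, and none was called. The median difference was 0.65 (log2), with a median change of 0.45 with Mex67 and −0.29 with Npl3. By culture the medians were 0.37 and 0.26 with Mex67 and −0.26 and −0.29 with Npl3. Both Mex67 cultures lay above both Npl3 cultures for 26 members (74.3%, against 14.4% of all features) and below for 0. For 17 members both Mex67 cultures were above 0 and both Npl3 cultures below 0, a pattern held by 167 of all 5334 features (3.13%). The median stayed between 0.56 and 0.87 as each library was left out.

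All parts of the particle shared this direction, in subgroups formed after the values were seen. The 14 core subunits had a median difference of 0.85 (13 above 0), the 6 ATPases of the cap 0.51 (6 above 0) and the other 13 cap subunits 0.56 (13 above 0).

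PRE8, an alpha subunit of the core (YML092C, build R64, chromosome XIII, 85987 to 86739), had 163 and 205 CPM with Mex67 at 42 °C, against 91.3 and 131 CPM at 25 °C. With Npl3 it had 110.0 and 162 CPM at 42 °C, against 207 and 223 CPM at 25 °C. Mex67 culture changes of 0.82 and 0.64 thus stood opposite Npl3 changes of −0.89 and −0.46. The difference was 1.38 ± 0.53 (SE, unadjusted p = 0.0269, adjusted p = 1.00 by edgeR's test). RPN10, the ubiquitin receptor of the cap (YHR200W, build R64, chromosome VIII, 499079 to 499885), had 267 and 312 CPM with Mex67 at 42 °C and 219.6 and 188 CPM at 25 °C. In Npl3 it had 91.4 and 97.2 CPM at 42 °C and 194 and 133 CPM at 25 °C. The levels of the proteins overlapped at 25 °C and not at 42 °C, and the difference was 1.29 ± 0.51.

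SEM1, a small cap subunit that is also part of the TREX-2 export complex at the nuclear pore, had the highest difference of the list, 1.43 ± 0.81 (SE). It had 264 and 88.1 CPM with Mex67 at 42 °C and 31.4 and 42.7 CPM at 25 °C, and with Npl3 824 and 429 CPM at 42 °C and 342 and 363 CPM at 25 °C. All 4 of its culture changes were positive and they overlapped (2.97 and 1.00 with Mex67, 1.26 and 0.24 with Npl3). Below 0 stood PRE9, the alpha subunit that the core can lack, with −0.14 ± 0.50, and BLM10, an activator that caps the core in place of the 19S particle, with −0.09 ± 0.63. BLM10 had the other sign under 3 of the alternatives.

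RPN4, the transcription factor that drives proteasome genes, did not share their direction. Its message had 132 and 150.0 CPM with Mex67 at 42 °C and 97 and 120.5 CPM at 25 °C, and with Npl3 160.3 and 98.1 CPM at 42 °C and 40.4 and 98.6 CPM at 25 °C. The difference was −0.50 ± 0.65 (SE), with Npl3 cultures at 1.92 and −0.01. Of the 12 messages for stress transcription factors, 9 had a positive difference and the median was 0.57. Both Mex67 cultures lay above both Npl3 cultures for 5 (41.7%, against 14.4% of all features) and below for 0 (against 12.4%). HSF1, the heat shock factor, had 256 and 219 CPM with Mex67 at 42 °C and 123 and 133 CPM at 25 °C, against 142 and 147 CPM at 42 °C and 83.9 and 165 CPM at 25 °C with Npl3, a difference of 0.68 ± 0.56. HAC1, the factor of the unfolded protein response, had 0.85 ± 0.76, and MSN4, a factor of the general stress response, 0.79 ± 0.75. Without single libraries HSF1 was as low as 0.11 (without Npl3 at 25 °C of culture 2) and as high as 1.15 (without Npl3 at 25 °C of culture 1). MSN4 was 0.0191 without Mex67 at 42 °C of culture 1 and 1.72 without Mex67 at 25 °C of culture 1. The heat change of HAC1 was 0.11 and 0.19 in the Mex67 cultures and −0.85 and −0.49 in the Npl3 cultures.

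**Figure D3:**
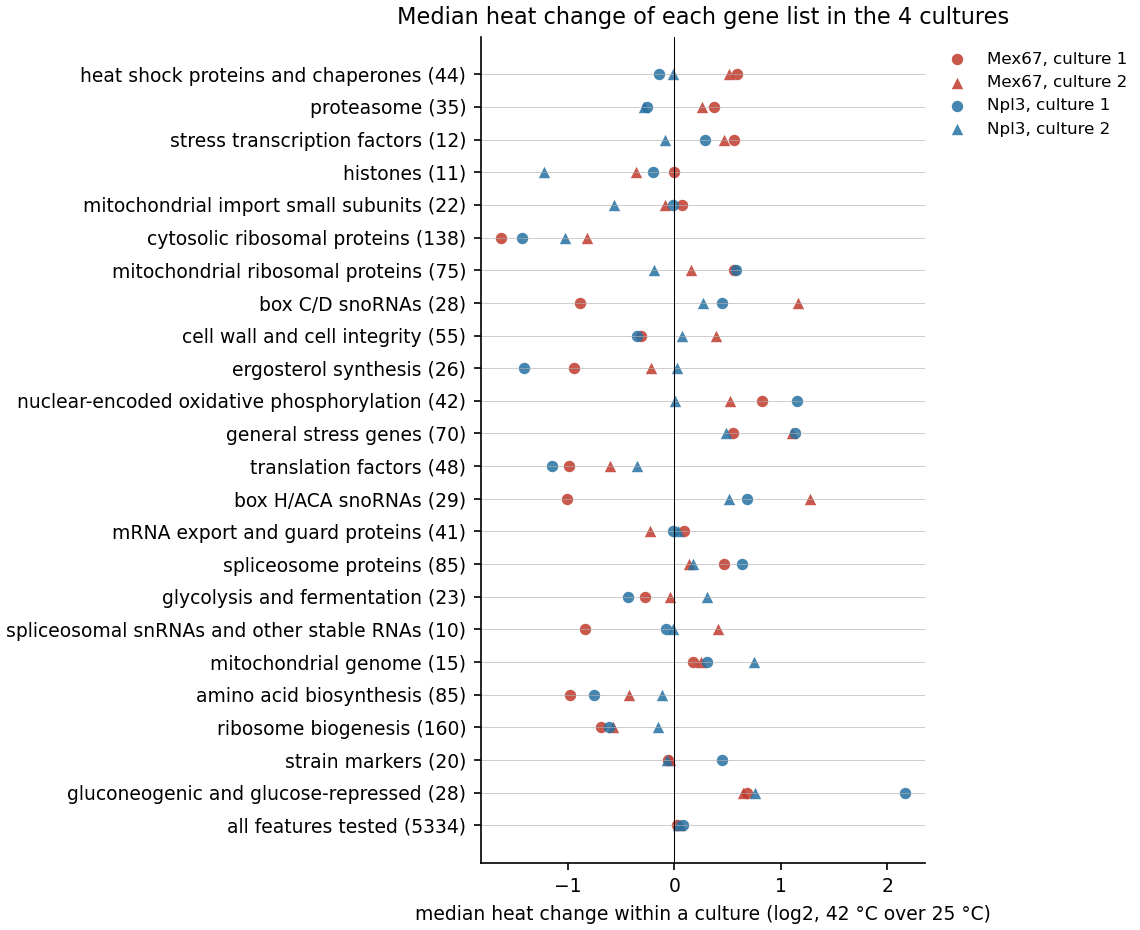
Median log2 heat change (42 °C over 25 °C) of each gene list within each culture (red, Mex67; blue, Npl3; circle, culture 1; triangle, culture 2), with the number of tested members in brackets. For the proteasome both Mex67 medians lie right of 0 and both Npl3 medians left of it, while the glucose-repressed list has 2.17 in Npl3 culture 1 and 0.64 to 0.76 in the other 3 cultures.

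Messages of gluconeogenesis and of other glucose-repressed genes, which yeast makes when glucose runs out, went the other way. Of the 28 tested members (37 in all), 2 had a larger heat change with Mex67, the median difference was −1.15 (log2), and none was called. The median change was 0.82 with Mex67 and 1.69 with Npl3, so both were positive. Both Mex67 cultures lay below both Npl3 cultures for 14 members (50%, against 12.4% of all features) and above for 0. The cultures were uneven, with medians of 0.68 and 0.64 with Mex67 and 2.17 and 0.76 with Npl3. Leaving out Npl3 at 42 °C of culture 1 took the median difference to −0.35, and leaving out Npl3 at 42 °C of culture 2 took it to −1.56.

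JEN1, the permease for lactate and pyruvate (YKL217W, build R64, chromosome XI, 22234 to 24084), had 130.1 and 59.5 CPM with Mex67 at 42 °C and 22.8 and 37.6 CPM at 25 °C. The Npl3 libraries had 501 and 106 CPM at 42 °C and 15.5 and 7.23 CPM at 25 °C. Unheated Npl3 libraries were the lowest of all 8, and both Mex67 changes (2.38 and 0.62) were smaller than both Npl3 changes (4.79 and 3.44). The difference was −3.11 ± 1.12 (SE, unadjusted p = 0.021, adjusted p = 1.00 by edgeR's test), and −1.60 without Npl3 at 42 °C of culture 1. JEN1 rose with Npl3 in the fit with the culture block (adjusted p = 0.00667).

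CAT8, a transcription factor of gluconeogenic genes, had 110.1 and 28.6 CPM with Mex67 at 42 °C and 34.2 and 5.02 CPM at 25 °C, and with Npl3 258 and 57.4 CPM at 42 °C and 20.2 and 8.14 CPM at 25 °C. It too rose with Npl3 in the fit with the culture block (adjusted p = 0.00998), its difference was −1.61 ± 1.49 (SE), and the level of 5.02 CPM rests on 2 counts. ADR1, a further activator of such genes, had culture changes of 0.13 and 1.23 with Mex67 and 2.16 and 1.47 with Npl3, a difference of −1.36 ± 0.63. Among members with a mean of at least 50 counts, GUT2 and GUT1 were the highest. These messages, for the glycerol-3-phosphate dehydrogenase of mitochondria and the glycerol kinase, had −0.06 ± 0.65 and −0.15 ± 0.78. Subgroups were formed after the values were seen. The 5 transporters (HXT6 and HXT7 share most of their sequence) had a median of −1.80 and differences of −7.42 to −0.38. The value of −7.42, the lowest of all features, came from a member with a mean under 50 counts. Both Mex67 cultures lay below both Npl3 cultures for 3 of the 5 (60%, against 12.4% of all features). The 3 transcription factors had a median of −1.36, with none above 0.

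General stress genes, a broad set that yeast turns up under many stresses, had similar heat changes with both proteins. The 70 members had median heat changes of 0.83 with Mex67 and 0.89 with Npl3, the median difference was 0.06, and 37 were above 0. Both Mex67 cultures lay above both Npl3 cultures for 13 members (18.6%) and below for 10 (14.3%), near the 14.4% and 12.4% of all features. Within the list the differences ran from −3.13 to 2.55. CYC7, the cytochrome c made in low oxygen and stress, stood at the top with 2.55 ± 1.66 (SE) and had 730.2 and 59.5 CPM with Mex67 at 42 °C and 28.5 and 12.5 CPM at 25 °C, against 3571 and 794 CPM at 42 °C and 989 and 324 CPM at 25 °C with Npl3. STF2, a small protein of drought tolerance, had 1.30 ± 1.23. GLC3, the glycogen branching enzyme, had −1.58 ± 1.28.

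NQM1, a transaldolase that is made in stationary phase, held the low end. It had 161 and 50.0 CPM with Mex67 at 42 °C and 79.9 and 7.53 CPM at 25 °C, and with Npl3 233 and 73.1 CPM at 42 °C and 4.66 and 8.14 CPM at 25 °C. Heated levels overlapped between the proteins, while Mex67 culture 1 at 25 °C stood far above the other 3 unheated libraries. The difference was −3.13 ± 1.44 (SE, unadjusted p = 0.0601), with 3 counts behind the lowest level, and it was −0.57 without Mex67 at 25 °C of culture 1. The sign of the list median likewise depended on single libraries: it was −0.45 without Mex67 at 42 °C of culture 1 and 0.92 without Mex67 at 25 °C of culture 1.

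Messages of cytosolic ribosomal proteins leaned lower after heat with both proteins, and none was called without the culture block. With the block, RPS8B, chosen here after its values were seen, fell with Npl3 (log2 change −2.02, adjusted p = 0.0439 by edgeR's test) as the lower call given above. Of 138 members, both cultures were below 0 for 128 with Mex67 and for 131 with Npl3, against 1611 and 1438 of all 5334 features. The median changes were −1.04 and −1.26. The difference was small, with a median of 0.26 and 107 members above 0, and 22 members (15.9%) had both Mex67 cultures above both Npl3 cultures, near the 14.4% of all features. Both Mex67 cultures lay below both Npl3 cultures for 4 members (2.9%, against 12.4% of all features). The sign of the median difference depended on single libraries, with −0.87 without Mex67 at 42 °C of culture 2 and 0.94 without Mex67 at 25 °C of culture 2. It was 0.08 with the culture as a block, and −0.03 when length offsets were added to the block. Medians by culture were −1.63 and −0.82 with Mex67 and −1.43 and −1.03 with Npl3. RPL41A, a protein of few residues in the large subunit, had the highest difference, 1.67 ± 0.78, and RPL22B had 0.98 ± 0.78. RPL4B and RPL17A were lowest, with −0.53 ± 0.73 and −0.48 ± 1.02. Each of these has a paralog elsewhere in the genome, and how shared reads were counted is not given in the sources used here.

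Ribosome biogenesis messages, for factors that make and trim ribosomal RNA and assemble subunits, leaned the other way. Of 160 members, 47 had a positive difference and the median was −0.30, with median changes of −0.63 with Mex67 and −0.36 with Npl3. Both Mex67 cultures lay below both Npl3 cultures for 36 (22.5%, against 12.4% of all features) and above for 6 (against 14.4%). NOP14, a scaffold of the small subunit processome, had 84.1 and 61.9 CPM with Mex67 at 42 °C and 183 and 188 CPM at 25 °C, against 201 and 241 CPM at 42 °C and 168 and 301 CPM at 25 °C with Npl3. The heated Mex67 libraries were the lowest of the 8, and the difference was −1.24 ± 0.56 (SE, unadjusted p = 0.0519). NSA2, a factor of the large subunit, had culture changes of −1.60 and −1.66 with Mex67 and −0.66 and −0.66 with Npl3, and a difference of −0.98 ± 0.47. KRE33, which acetylates ribosomal RNA, had −1.23 ± 0.84, and NOP15 and FCF2, further assembly factors, had 0.99 ± 0.70 and 0.97 ± 0.60. The list median was 0.06 without Npl3 at 42 °C of culture 2.

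The proteins of export themselves showed no common direction. Of 41 messages for export and guard proteins, 19 had a positive difference and the median was −0.02. Separated cultures above and below were held by 3 and 6 (7.32% and 14.6%, against 14.4% and 12.4% of all features). MEX67 had 192 and 102 CPM with Mex67 at 42 °C and 234 and 120.5 CPM at 25 °C, against 57 and 75.9 CPM at 42 °C and 79.2 and 89.5 CPM at 25 °C with Npl3. NPL3 had 742 and 421 CPM with Mex67 at 42 °C and 553 and 599.8 CPM at 25 °C, against 1392 and 2107 CPM at 42 °C and 1904 and 2522 CPM at 25 °C with Npl3. Each protein's own message was thus higher in its own precipitate in all 4 libraries, and the heat changes differed little (0.09 ± 0.63 for MEX67 and 0.35 ± 0.79 for NPL3). MTR2, the partner of Mex67, had 0.81 ± 0.50. MTR10, the import receptor of Npl3, and NUP159, a nucleoporin on the cytoplasmic side of the pore, had −0.88 ± 0.49 and −0.99 ± 0.74. The guard proteins GBP2 and HRB1 had 0.46 ± 0.58 and −0.02 ± 0.59, the poly(A)-binding NAB2 had 0.18 ± 0.52 and the adaptor YRA1 −0.17 ± 0.71. Actin (ACT1) and the glycolytic PGK1, often used as reference messages, had −0.21 ± 0.87 and 0.32 ± 1.03.

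Single messages with the lowest unadjusted p lay outside the lists for the most part. None passed the adjusted test (adjusted p = 1.00 for each by edgeR's test), so they are given as the ends of the distribution. Of the 12 in each direction, all had culture changes that did not overlap between the proteins. They were picked for the lowest p of this difference in these same libraries. That choice favours such separation, so the separation is no further support. Leaving out each library in turn kept the difference within 1.5 times its value for 12 of the 23 described here, and for 14 of all 67 genes named by the rule and described.

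LST8, a subunit of the TOR kinase complexes (YNL006W, build R64, chromosome XIV, 620067 to 620978), had 194 and 133 CPM with Mex67 at 42 °C and 59.9 and 55.2 CPM at 25 °C. With Npl3 it had 14.6 and 30.5 CPM at 42 °C and 37.3 and 32.6 CPM at 25 °C. The heated Mex67 libraries were highest and the heated Npl3 libraries lowest of all 8. The difference was 2.11 ± 0.59 (SE, 95% interval 0.79 to 3.43, unadjusted p = 0.00528), and it lay between 1.70 and 2.76 as each library was left out. RAD6, a ubiquitin-conjugating enzyme (YGL058W, build R64, chromosome VII, 393986 to 394504), had 113 and 69 CPM with Mex67 at 42 °C and 31.4 and 30.1 CPM at 25 °C, while its 4 Npl3 libraries held 105 to 116 CPM. Its difference was 1.57 ± 0.52.

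MEH1, a vacuolar anchor of TOR signalling, had 55.5 and 50.0 CPM with Mex67 at 42 °C and 17.1 and 17.6 CPM at 25 °C, against 103 and 88.9 CPM at 42 °C and 83.9 and 137 CPM at 25 °C with Npl3. Its difference of 1.82 ± 0.56 (SE) came from levels that stayed below those of Npl3 at both temperatures. YPI1, a regulator of protein phosphatase 1, had the same form, with culture changes of 1.42 and 1.37 with Mex67 and 0.28 and −0.56 with Npl3 and a difference of 1.63 ± 0.59. YRO2, a membrane protein related to HSP30, had 897 and 326 CPM with Mex67 at 42 °C and 214 and 47.7 CPM at 25 °C, against 152 and 246 CPM at 42 °C and 270.2 and 231 CPM at 25 °C with Npl3, and a difference of 2.56 ± 0.98. PKR1, an assembly factor of the vacuolar proton pump, differed through Npl3, with culture changes of −0.10 and −0.34 with Mex67 and −1.62 and −1.50 with Npl3 (difference 1.35 ± 0.51). HEM3, an enzyme of haem synthesis, had 1.33 ± 0.54 in the same manner. PFK27, which makes the activator of glycolysis fructose 2,6-bisphosphate, had 1.91 ± 0.77, and GIM4, a prefoldin subunit, 1.77 ± 0.69.

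YER053C-A, a short open reading frame (build R64, chromosome V, 260933 to 261046), had 320 and 5 counts with Mex67 in the heated parts, against 1 and 0 in the unheated ones. With Npl3 it had 205 and 289 counts heated, against 89 and 233 unheated. Its unheated Mex67 libraries were at or under 1 count, so no fold is given, and its rise with Mex67 in the fit with the culture block (adjusted p = 0.0160) rests on culture 1.

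On the side of Npl3, DUR12, the enzyme that breaks down urea (YBR208C, build R64, chromosome II, 636703 to 642210), had 121 and 176 CPM with Mex67 at 42 °C and 237 and 422 CPM at 25 °C. With Npl3 it had 135 and 131 CPM at 42 °C and 60.6 and 83.2 CPM at 25 °C. All 4 culture changes were opposite between the proteins (−0.96 and −1.25 with Mex67, 1.12 and 0.64 with Npl3), and the difference was −2.04 ± 0.58 (SE, 95% interval −3.34 to −0.75, unadjusted p = 0.00569). HBT1, a protein of the mating projection, had culture changes of 0.68 and 1.78 with Mex67 and 3.89 and 2.56 with Npl3 (difference −2.44 ± 1.10, and −0.52 without Mex67 at 25 °C of culture 1). It rose with Npl3 in the fit with the culture block (adjusted p = 0.0141), as did NQM1 (adjusted p = 0.0135). DPI8 had 136 and 66.6 CPM with Mex67 at 42 °C and 111 and 37.6 CPM at 25 °C, against 739 and 552 CPM at 42 °C and 68.3 and 189.9 CPM at 25 °C with Npl3 (difference −1.83 ± 0.89).

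Further messages stood at this end. URA1, an enzyme of pyrimidine synthesis, had culture changes of −2.04 and −1.12 with Mex67 and 0.05 and −0.54 with Npl3 (difference −1.27 ± 0.62). The aminopeptidase LAP3 had −1.28 and −0.66 with Mex67 and 0.11 and 0.15 with Npl3 (difference −1.18 ± 0.57). SAP185, which binds the phosphatase Sit4, had −0.06 and −0.07 with Mex67 and 0.44 and 1.61 with Npl3 (difference −1.17 ± 0.53). None of these 67 genes overlaps another gene of the RefSeq annotation. Overlap with the 965 counted features that had no match in that annotation was not checked.

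**Figure D4:**
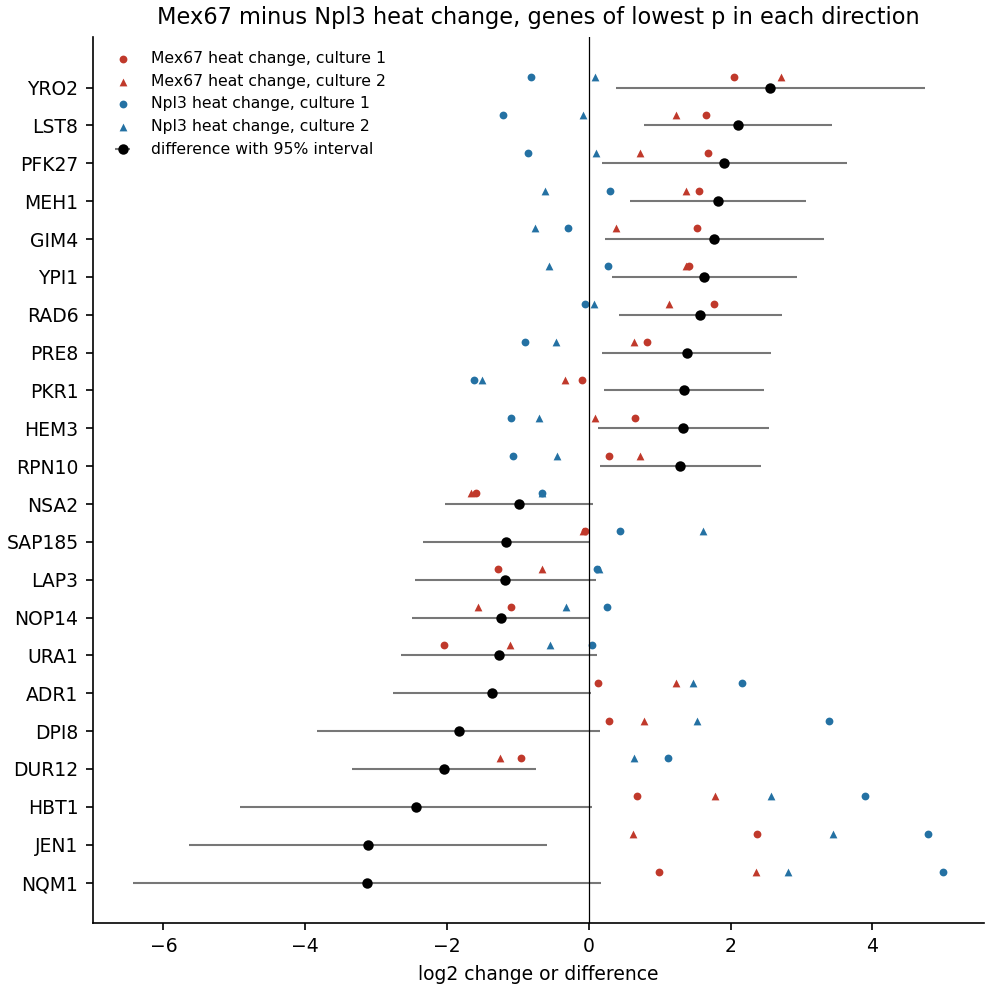
Mex67 minus Npl3 heat change (black points, log2, with 95% intervals) for the genes described here from the 12 of lowest unadjusted p in each direction, leaving out YER053C-A, whose unheated Mex67 libraries were at or under 1 count. Small points give the heat change within each culture (red for Mex67, blue for Npl3). Red and blue do not overlap in any row, and intervals for the upper 11 genes exclude 0 while most of those below reach it. The genes were picked for low p of this same difference, which favours both patterns.

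The difference also ran with gene length. Over 5218 coding genes, Spearman's correlation of the log2 difference with length was −0.222, a description across genes of the same 8 libraries. Genes of up to 300 bp (147) had a median of 0.24. It was 0.15 for the 1364 genes over 500 and up to 1000 bp, −0.09 for the 843 over 1500 and up to 2000 bp, and −0.20 for the 481 genes over 3000 bp. Short genes thus had larger heat changes with Mex67 relative to Npl3 than long ones. By culture, the genes of up to 300 bp had median heat changes of 0.79 and 0.36 with Mex67 and 1.04 and −0.01 with Npl3, and those over 3000 bp had −0.22 and 0.03 with Mex67 and −0.06 and 0.22 with Npl3. The length trend therefore ran the same way in 3 of the cultures and the other way in Npl3 culture 2. The median gene length was 1206 bp for chaperones, 864 bp for the proteasome and 1713 bp for glucose-repressed genes, against 1269 bp over all features. With offsets corrected for length the chaperone and proteasome medians were 0.72 and 0.58.

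**Figure D5:**
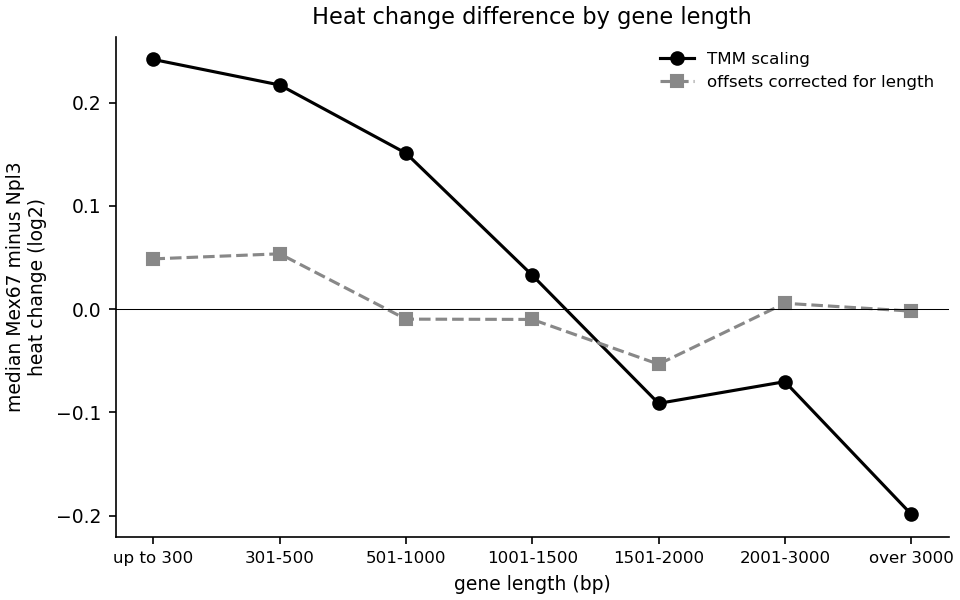
Median Mex67 minus Npl3 heat change (log2) of coding genes in 7 bins of gene length (x axis, bp), with TMM scaling (black) and with offsets corrected for length (grey). The black line goes from 0.24 for genes of up to 300 bp to −0.20 for genes over 3000 bp, and the grey line lies between −0.05 and 0.05.

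Further lists are given by their medians, against 0.02 over all features. Histone messages (11, median 0.41, 9 above 0) and the small subunits of mitochondrial import (22, median 0.39, 16 above 0) had positive medians. Of these, 2 and 8 members were separated above (18.2% and 36.4%, against 14.4% of all features). Separated below were 0 and 2 (0% and 9.09%, against 12.4%). The histone share above was thus near that of all features. Mitochondrial ribosomal proteins (75) had a median of 0.25, amino acid biosynthesis (85) −0.27 and transcripts of the mitochondrial genome (15) −0.25. Medians lay between −0.09 and 0.10 for oxidative phosphorylation, glycolysis, translation factors, cell wall and spliceosome proteins and ergosterol synthesis, and at 0.15 and 0.00 for box C/D and box H/ACA snoRNAs, the guides of ribosomal RNA modification. In those snoRNAs the Mex67 cultures were opposite to each other, with −0.89 and 1.16 (box C/D) and −1.01 and 1.28 (box H/ACA). The list of strain markers, mating and auxotrophy genes had a median of −0.998, with 4 of 20 members above 0 and differences of −4.30 to 1.52.

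The control without a tag gives heat changes of background RNA, and its cultures differed from each other for several lists. Over its libraries, on a scale set with all 12 libraries, the median heat change of the chaperone list was −1.03 and 0.05 in cultures 1 and 2, that of the proteasome −0.48 and −0.11, and that of glucose-repressed genes 0.06 and 0.88, against −0.25 and −0.04 over all 5245 features of that fit. Its general stress genes had −1.10 and 1.39 and its ribosome biogenesis messages 0.84 and −0.33, while its cytosolic ribosomal proteins had −0.33 and −0.49. These values come from another scaling than those of the 8 libraries and were not tested against them.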

How the data were processed

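The deposited values were whole-number counts of reads per annotated feature, 1 table per library, not normalized, as the authors deposited them. Per the submitters' processing notes, the tools were STAR, DESeq2, CASAVA (1.8.2) and, for counting, featureCounts (Subread 1.5.0-p1), on build R64. Whether strand was used, how multi-mapping reads were treated and the aligner's options are not given in the sources used here. Per the labels' protocols, RNA was fragmented and libraries were made without mRNA enrichment or rRNA depletion. Features were joined to a RefSeq R64 table by locus tag (6048) or by symbol or synonym (113), and 965 kept the name in the files.

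Counts were tested with edgeR 4.0.16 (R 4.3.3; glmQLFit with robust estimation, glmQLFTest) on the 8 immunoprecipitation libraries, with TMM scaling and filterByExpr (minimum 10 counts, 15 in total), 1 mean per group, 4 residual degrees of freedom and Benjamini-Hochberg adjustment at 0.05 over 5334 features. The common biological coefficient of variation was 0.357, and 0.289 with the culture as a block, which left 2 residual degrees of freedom. The SE of a log2 change is its size over the square root of F, and intervals are 95%. Changes within a culture are differences of log2 CPM with a prior count of 2. Total counts of 354440 to 1140349 per library set the counting precision.

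The growth protocol says each culture was divided between temperatures. Equal replicate numbers within a strain were therefore taken as parts of the same culture, which the sources do not state. The deviations of replicate 1 from replicate 2 correlated between temperatures at 0.589 (Mex67) and 0.109 (Npl3) over 2730 features. Across strains the sources give no pairing, and those correlations were 0.096 at 25 °C and 0.475 at 42 °C.

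The features, gene lists and tests were chosen with earlier results of these data known, and no list was tested as a set. Genes were named by a rule: 12 of lowest p in each direction with a mean of at least 50 counts, up to 2 highest and 2 lowest such members of each of 23 lists, and 20 fixed genes. Of the 129 genes so named, 67 are described. Alternatives were RLE size factors, total counts, DESeq2 1.42.0, limma voom with sample weights (limma 3.58.1), other count filters, all 12 libraries, blocks for culture or for the shared replicate number, protein-coding features, offsets corrected for gene length (lowess, span 0.4) with and without the culture block, and leaving out each library. Bias-adjusted deviances were added after seeing the data. The 4 no-tag libraries entered only the fit of all 12 libraries and the control's own heat change. Figures were drawn with matplotlib 3.10.9.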

Additional observations from a re-analysis of the deposited data

Results flagged for a closer look

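The medians of 2 lists had opposite signs in the cultures of the proteins, positive in both Mex67 cultures and negative in both Npl3 cultures. For heat shock proteins and chaperones the median difference was 0.73 (log2), with culture medians of 0.59 and 0.51 for Mex67 and −0.14 and −0.02 for Npl3. The Npl3 medians of this list were close to 0 and to those of all features (0.08 and 0.03), so their negative sign carries little weight. For the proteasome it was 0.65, with 0.37 and 0.26 for Mex67 and −0.26 and −0.29 for Npl3. Single messages with this pattern in all 4 cultures were 0 of the 44 tested chaperones and 17 of the 35 proteasome messages, against 3.13% of all features. These differences of medians were not tested.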

How the results depend on the processing

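The interaction had 0 called features in all 23 settings run (the one reported, 14 alternatives and 8 that left out a library each), with 18 to 149 features at an unadjusted p under 0.05. The arms moved more. The Mex67 heat change had 11 calls with DESeq2, 2 without a low-count filter and 3 in each fit with the culture as a replicate block (alone, with length offsets, and with bias-adjusted deviances). The Npl3 heat change had 32 with DESeq2, 1 without a filter, 30 with the culture block, 54 with length offsets and the culture block, 32 with bias-adjusted deviances and the culture block, and 19 with the shared number as a replicate block. Leaving out 1 library gave 0 to 1 calls for Mex67 (highest without Mex67 at 42 °C of culture 2) and 0 to 4 for Npl3 (highest without Npl3 at 42 °C of culture 2). Total counts in place of TMM set the median of all features to 0.28 with Mex67 and 0.20 with Npl3, against 0.06 and 0.05. The culture block changed no call of the interaction.

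The chaperone median was 0.85 with the filter set to a mean of 50 counts, and 0.51 to 1.04 with a library left out. The proteasome median was 0.75 with total counts, 0.74 without a filter and 0.56 to 0.87 with a library left out. With a library left out the other medians were −1.56 to −0.35 for glucose-repressed genes, −0.87 to 0.94 for ribosomal proteins, −0.52 to 0.0588 for ribosome biogenesis, −0.45 to 0.92 for general stress genes and 0.13 to 0.85 for stress transcription factors. Of the 67 genes named by the rule and described, 61 kept their sign in every alternative that kept all 8 libraries, and 45 in those and in all fits without a library. MGE1 was 0.0682 with total counts and 0.0205 without a filter. BLM10 was 0.0796 with voom, 0.20 with length offsets, and 0.20 with length offsets and the culture block. GUT2 was 0.0545 with total counts, 0.0514 without a filter, 0.0309 with coding features and 0.0420 with length offsets and the block. HRB1 was 0.11 with total counts, 0.0807 without a filter, 0.0041 with the shared number as a block, 0.0603 with coding features and 0.0072 with length offsets. MEX67 was −0.0188 and YRA1 0.0212 with voom. The cause of these turns was not tested.

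Without 1 library each, the difference ran from −0.72 to 0.22 for ACT1, −0.47 to 0.28 for BLM10, −0.42 to 1.56 for BTN2, −2.95 to 0.38 for CAT8, −0.17 to 0.41 for CDC37 and −0.19 to 4.01 for CYC7. It ran from −2.57 to 0.62 for GLC3, −0.72 to 0.68 for GUT1, −0.52 to 0.62 for GUT2, −0.48 to 0.42 for HRB1, −0.31 to 2.58 for HSP42 and −1.88 to 0.0660 for KRE33. It ran from −0.44 to 0.70 for MEX67, −0.56 to 0.37 for MGE1, −0.11 to 0.80 for NPL3, −0.74 to 0.95 for PGK1 and −0.29 to 0.23 for PRE9. For RPL17A, RPL4B, RPN4, STF2 and YRA1 it ran from −1.97 to 0.27, −1.24 to 0.0642, −1.30 to 0.0536, −0.84 to 2.25 and −0.57 to 0.61. With 354440 to 1140349 counts per library, levels below 10 CPM rest on few counts. So do some higher levels in the unheated Mex67 libraries, where MEH1 had 6 and 7 counts, GIM4 7 and 7, and CYC7 10 and 5. Genes called in no setting may still differ.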

Other observations

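Prefoldin and the CCT chaperonin, which fold actin and tubulin together, were looked at after the values were seen. Of the 6 prefoldin messages, 5 had a larger heat change with Mex67, and the median difference was 0.74 (log2). The median heat change was 0.08 with Mex67 and −0.58 with Npl3, with 0.54 and −0.06 in the Mex67 cultures and −0.38 and −0.65 in the Npl3 cultures. Both Mex67 cultures lay above both Npl3 cultures for 4 of the 6 (66.7%, against 14.4% of all features) and below for 1 (16.7%, against 12.4%). All 8 CCT messages had a positive difference, with a median of 0.37. Both cultures were below 0 for 8 with Mex67 and for 7 with Npl3, against 1611 and 1438 of all 5334 features. The median changes of CCT were −0.46 with Mex67 and −0.85 with Npl3. Both Mex67 cultures lay above both Npl3 cultures for 2 of the 8 (25%) and below for 0. None of these 14 messages was called in the interaction by edgeR's test.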
